A study of Mus musculus with 8 samples.

Results

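Small nucleolar RNAs (snoRNAs) and small Cajal body RNAs (scaRNAs) were taken from the count table as the rows whose gene symbol starts with Snord, Snora or Scarna. This gave 150 of 55487 rows, of which 99 were C/D box snoRNAs (Snord), 42 were H/ACA box snoRNAs (Snora) and 9 were scaRNAs (Scarna). RNA came from germ cells sorted from the fetal testes of C57BL/6 mice that carried an Oct4-eGFP reporter on both alleles in both groups, a green fluorescent protein driven by sequences of the pluripotency gene Oct4. The 4 libraries labelled KO came from Rhox10-null animals, which lack a homeobox gene of the X-linked Rhox cluster, and the 4 labelled WT came from littermates with the same reporter. Neither the fetal age nor the number of animals behind each library is given in the sources used here, so p-values measure the spread between these samples, which may be technical.

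A C/D box snoRNA binds the methyltransferase fibrillarin and guides 2′-O-methylation of ribosomal RNA, and an H/ACA box snoRNA binds the pseudouridine synthase dyskerin and guides pseudouridylation. The scaRNAs carry boxes of either kind, or both, gather in Cajal bodies and guide the same modifications on the spliceosomal small nuclear RNAs. Most mammalian snoRNAs are cut from the introns of host genes, many of which encode ribosomal proteins, and a few have promoters of their own. The boxes are short: the C box and the D box lie near the ends of a C/D box snoRNA, and the ACA box lies just before the 3′ end of an H/ACA box snoRNA.

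The sequences of 5 of the 7 members that passed the test are shown as examples, and that of Snord116l1 because its repeated copies had no count. They are the GENCODE M21 transcripts on GRCm38, written 5′ to 3′ with T for U. Capitals mark NTGATGA, the C box, and CTGA, the D box, in Snord genes, and ACA in Snora genes.
Snord15a: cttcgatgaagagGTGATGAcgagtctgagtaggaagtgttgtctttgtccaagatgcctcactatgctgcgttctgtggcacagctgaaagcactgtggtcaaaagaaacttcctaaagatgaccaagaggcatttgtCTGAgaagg
Snord82: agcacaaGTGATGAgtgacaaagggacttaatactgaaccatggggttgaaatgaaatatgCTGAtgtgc
Snora23: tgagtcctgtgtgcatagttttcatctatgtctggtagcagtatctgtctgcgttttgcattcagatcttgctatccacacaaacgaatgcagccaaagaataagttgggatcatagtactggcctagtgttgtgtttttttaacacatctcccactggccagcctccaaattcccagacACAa
Snora21: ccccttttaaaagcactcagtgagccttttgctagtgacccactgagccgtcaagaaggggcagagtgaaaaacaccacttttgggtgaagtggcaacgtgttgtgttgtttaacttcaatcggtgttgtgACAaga
Snora78: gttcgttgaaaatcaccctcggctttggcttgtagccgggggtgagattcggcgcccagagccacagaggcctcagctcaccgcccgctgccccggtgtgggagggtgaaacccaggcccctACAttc
Snord116l1: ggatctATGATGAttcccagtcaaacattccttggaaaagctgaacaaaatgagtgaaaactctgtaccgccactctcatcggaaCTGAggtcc
Snord15a lies at chr7:99482785-99482932 on the minus strand and Snord82 at chr1:86356261-86356330 (minus). Snora23 lies at chr7:110046364-110046547 on the plus strand, Snora21 at chr11:97781639-97781775 (minus) and Snora78 at chr17:24719676-24719803 (minus). Snord116l1 lies at chr7:59894620-59894713 on the minus strand.

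The boxes followed the classes. On the transcribed strand, NTGATGA was found in the first 30 bases of 71 of 99 Snord rows (71.7%) and of 0 of 42 Snora rows. CTGA stood in the last 25 bases of 98 Snord rows (99%) and 6 Snora rows (14.3%), and ACA in the last 10 bases of 8 Snord rows (8.08%) and 40 Snora rows (95.2%). Of the 9 Scarna rows 4 held both C/D motifs and 4 held the ACA. CTGA can lie inside NTGATGA, but the first 30 and last 25 bases of a member do not overlap, and a match is a description of the letters alone. C/D box members were the shortest, with a median annotated length of 84 bases (64 to 238), against 132.5 bases (121 to 205) for H/ACA members and 140 bases (70 to 414) for scaRNAs.

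The 8 libraries held 16346977 to 20311338 counts. Rhox10, the gene named in the genotype, had 14, 10, 18 and 22 counts in libraries labelled KO and 18, 25, 19 and 17 in those labelled WT (edgeR adjusted p = 0.767), so its level did not separate the labels. The extent of the deletion is not stated in the labels. All 10 germ-cell markers listed had counts, among them the receptor gene Kit at 37.2 ± 1.20 counts per 1000000 (CPM, scaled by library size) in KO and 35.8 ± 1.55 CPM in WT (SD, n = 4 each). Summed over the list, they reached 174 to 183 CPM in KO and 169 to 186 CPM in WT. Of the 9 tested, 2 rose, 1 fell and 6 did not pass, where 2.35% of all genes tested rose and 2.80% fell. The risers were Dazl (log2 fold change 0.37, edgeR adjusted p = 6.24e-05) and Dppa3 (0.41, edgeR adjusted p = 0.00117). Tdrd1 fell (-0.43, edgeR adjusted p = 3.27e-08). Markers of other cell types were read too. Summed over the list, 9 tubule and duct epithelium markers reached 90.9 to 101 CPM in KO and 43.8 to 47.9 CPM in WT, and 8 erythroid markers 94.0 to 98.7 CPM in KO and 225 to 239 CPM in WT. The 6 Leydig cell markers reached 2771 to 2809 CPM in KO and 3051 to 3082 CPM in WT, and the 8 Sertoli cell markers 626 to 650 CPM in KO and 645 to 674 CPM in WT. Both sums were above that of the germ-cell markers in every library. Levels given here are therefore those of the sorted RNA as a whole, not of germ cells alone. The 6 endothelial markers reached 209 to 219 CPM in KO and 188 to 199.9 CPM in WT, and the 7 leukocyte markers 16.8 to 19.5 CPM in KO and 21.3 to 22.2 CPM in WT. Of those tested, 9 of 9 epithelium and 3 of 6 endothelial markers rose, against 2.35% of all genes tested. Falls were called for 5 of 8 erythroid, 5 of 6 Leydig and 2 of 8 Sertoli markers, against 2.80% of all genes tested. None of these markers was at 0 in every library. Their part in the snoRNA results was not tested, and in sorted bulk RNA fewer cells of a type and less RNA per cell cannot be told apart.

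Whether a row had any count followed its position. Of the 150 rows, 83 had no count in any library: 57 of 99 Snord rows, 26 of 42 Snora rows and 0 of 9 Scarna rows. All 57 rows that lie wholly within an exon of another gene on the same strand were at 0, as were all 3 that lie wholly within an exon on the opposite strand alone. Among the 74 rows outside the exons of other genes 56 had counts, and of the 16 rows partly within such an exon 11 had counts. How the counting treated reads on overlapping exons is not given in the sources used here, so a count of 0 in a covered row is not read as a level.

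**Figure D1:**
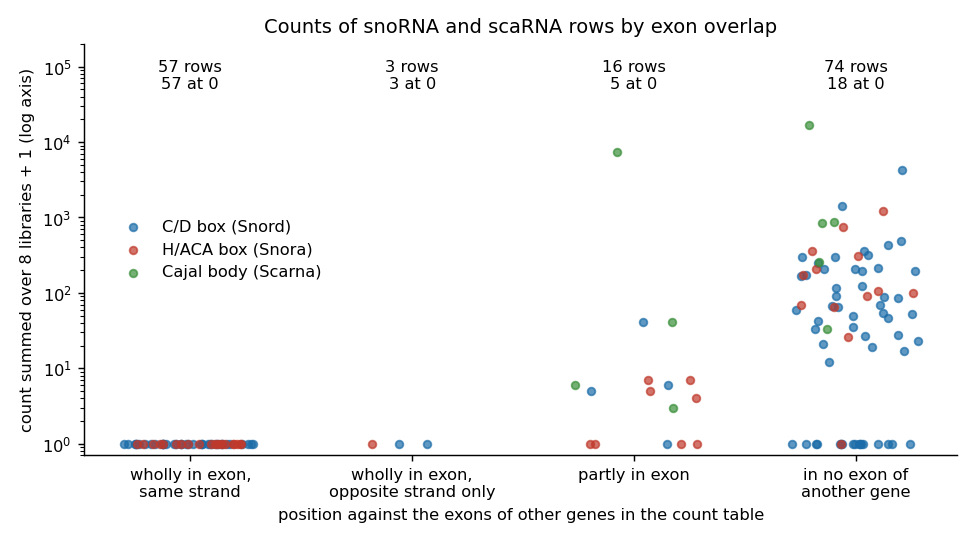
Count of each of the 150 member rows, summed over the 8 libraries plus 1 on a log axis, by how the row lies against the exons of other genes in the table (1 point per row, coloured by class). The 57 rows wholly inside a same-strand exon and the 3 wholly inside an opposite-strand exon all sit at 0, while 56 of the 74 rows outside such exons have counts.

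Several snoRNAs known for steps of ribosomal RNA cleavage, not only for guiding modifications, were among the rows at 0. Both rows of Snora73, which acts in processing of the small-subunit RNA, lie within Rcc1; most of Snora73a is in an exon of Snhg3, and Snora73b is wholly in an exon of Gm17300 on the opposite strand. The 4 rows of Snord14, another small-subunit factor, lie in exons of Rps13 and Hspa8, and Snord22 lies in an exon of Snhg1. The 18 rows at 0 outside other genes' exons were Snora35, which sits in the brain serotonin receptor gene Htr2c, and 17 copies of Snord116, an imprinted brain snoRNA family best known from Prader-Willi syndrome. The 17 copies have 4 distinct sequences between them, the shown Snord116l1 being 1 of them. Their host RNA Snhg14 was read, with 301 to 359 counts per library labelled KO and 290 to 374 per library labelled WT. A count of 0 allows up to 3 counts, 0.149 to 0.183 CPM per library, and covers counting error only. No row with a symbol starting Snord113, Snord114 or Snord115 was analysed here.

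The 67 rows with counts were unequal. Scarna2, which guides methylation of a spliceosomal RNA and has its own promoter, took 41.5% of all counts in the members and Scarna13, an H/ACA scaRNA hosted by Snhg10, had 7493 counts over the 8 libraries. Per kilobase of annotated length the tested members spanned 4.63 CPM (Snora41) to 280 CPM (Scarna2), with Scarna13 at 188, Snord17 at 123 and Snord15a at 66.3 CPM per kilobase. Enough counts for the test were present in 35 rows, 21 Snord, 9 Snora and 5 Scarna, which held 97.5% of the members' counts. The other 32 rows with counts had 2 to 68 counts over the 8 libraries and went untested. Of the 35, 25 passed the minimum in all 8 libraries, 4 in all KO libraries but not all WT ones and 1 the other way. None of the 35 shares its whole sequence with another member, and 29 have no annotated copy elsewhere at 90% identity over 80% of the length. Of the 7 called members only Snora21 had such a copy, with 8 counts against its own 747.

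All 3 classes had a higher mean share of the counts in the libraries labelled KO, most so the H/ACA box snoRNAs. The H/ACA box rows took 27.4, 27.8, 28.4 and 26.8 counts per 1000000 in KO replicates 1 to 4, against 18.01, 21.6, 21.5 and 19.1 in WT replicates 1 to 4. The groups did not overlap, and the ratio of the means was 1.38. The C/D box rows took 77.9, 82.9, 81.1 and 75.7 counts per 1000000 in KO and 62.8, 74.6, 73.1 and 59.6 in WT, again with no overlap (ratio 1.18), though KO replicate 4 and WT replicate 2 lay close together. The scaRNA rows took 182, 192, 190 and 195 counts per 1000000 in KO and 172, 183, 172 and 168 in WT, with KO replicate 1 below WT replicate 2 (ratio 1.09). Within the members' own counts the H/ACA share was 9.002 to 9.56% in KO and 7.14 to 8.07% in WT. Single rows held much of each sum: Snora23 had 34.9% of the H/ACA box counts, Snord17 39.7% of the C/D box counts and Scarna2 63.8% of the scaRNA counts. These sums are descriptions with no test.

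**Figure D2:**
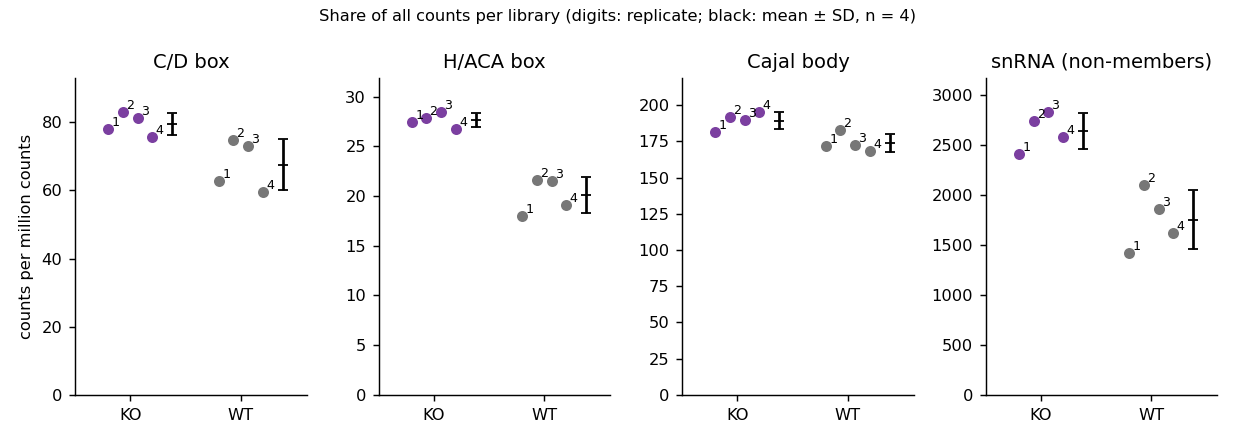
Share of each library's counts, in counts per 1000000 (y axis, from 0), taken by the 3 classes of members and, for comparison, by rows annotated as small nuclear RNA, for 4 libraries labelled KO and 4 labelled WT (points, digit: replicate) with mean ± SD. H/ACA box rows lie at 26.8 to 28.4 in KO and 18.01 to 21.6 in WT, and small nuclear RNA rows at 2412 to 2831 in KO and 1425 to 2106 in WT.

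Some other small structured RNAs, but not all, also took a larger share in the libraries labelled KO. Rows annotated as small nuclear RNA took 2412 to 2831 counts per 1000000 in KO and 1425 to 2106 in WT (ratio 1.51), where near-identical copies can count the same reads more than once. WT replicates 1 and 4 were the lowest of the WT libraries for small nuclear RNA, H/ACA and C/D box rows alike. The 1409 other rows annotated as snoRNA or scaRNA took 346 to 367 counts per 1000000 in KO and 290 to 332 in WT (ratio 1.14). Of their 85 tested rows 6 rose and 0 fell, where 2.35% of all genes tested rose and 2.80% fell. The RNase P-like RNA Rprl3 took 221 to 246 counts per 1000000 in KO and 87.9 to 91.8 in WT, and the elongation regulator Rn7sk 3106 to 3251 in KO and 2955 to 3078 in WT. The RNase P RNA Rpph1 was lower, at 3.30 to 4.82 in KO and 4.33 to 6.20 in WT (edgeR adjusted p = 0.0337). Rows annotated as miRNA (ratio 1.003) and as miscellaneous RNA (1.05) overlapped between the groups. The mitochondrial genome took 157150 to 167914 counts per 1000000 in KO and 153126 to 156997 in WT, with no overlap. Protein-coding nuclear genes under 500 bases took a smaller share in KO, at 2004 to 2085 in KO and 2187 to 2290 in WT. The part of these shifts in the members' values was not tested.

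The gene-by-gene comparison asked which members differ between the libraries labelled KO and those labelled WT. With the KO label 7 of the 35 tested members rose, none fell and 28 did not pass (edgeR quasi-likelihood test, adjusted p under 0.05 over all genes). The risers were the C/D box snoRNAs Snord15a, Snord13 and Snord82, the H/ACA box snoRNAs Snora23, Snora21 and Snora78, and the scaRNA Scarna2. By class 3 of 21 C/D box, 3 of 9 H/ACA box and 1 of 5 scaRNA rows rose, 20% of the tested members together. Over all 23190 genes tested 2.35% rose and 2.80% fell, 5.14% in all; scaled by library totals alone, the split over all genes was 426 higher and 836 lower, against 544 and 649, while the members stayed at 7 and 0. At an unadjusted p under 0.05, 13 members were higher and 0 lower, where 7.53% of all genes tested were higher and 8.07% lower. DESeq2 called 5 higher and 0 lower, and limma voom 7 and 0. Without WT replicate 4 the count fell to 3 (Snord15a, Snora23 and Snora21).

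The tested members leaned to one side. The log2 fold change was above 0 for 27 of 35 members (14 of 21 C/D box, 8 of 9 H/ACA box and 5 of 5 scaRNA), with medians of 0.17, 0.49 and 0.14 in the 3 classes and 0.18 over the 35. The median over all genes tested was 0.0020. The filter bears on this lean, as 4 of the 35 passed the minimum in all KO libraries but not all WT ones, and 1 the other way. All 7 called members passed it in all 8 libraries. The groups did not overlap for 8 members, all higher in KO, where 4.72% of all genes tested had no overlap and were higher. H/ACA and C/D box rows were not compared with each other by a test.

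**Figure D3:**
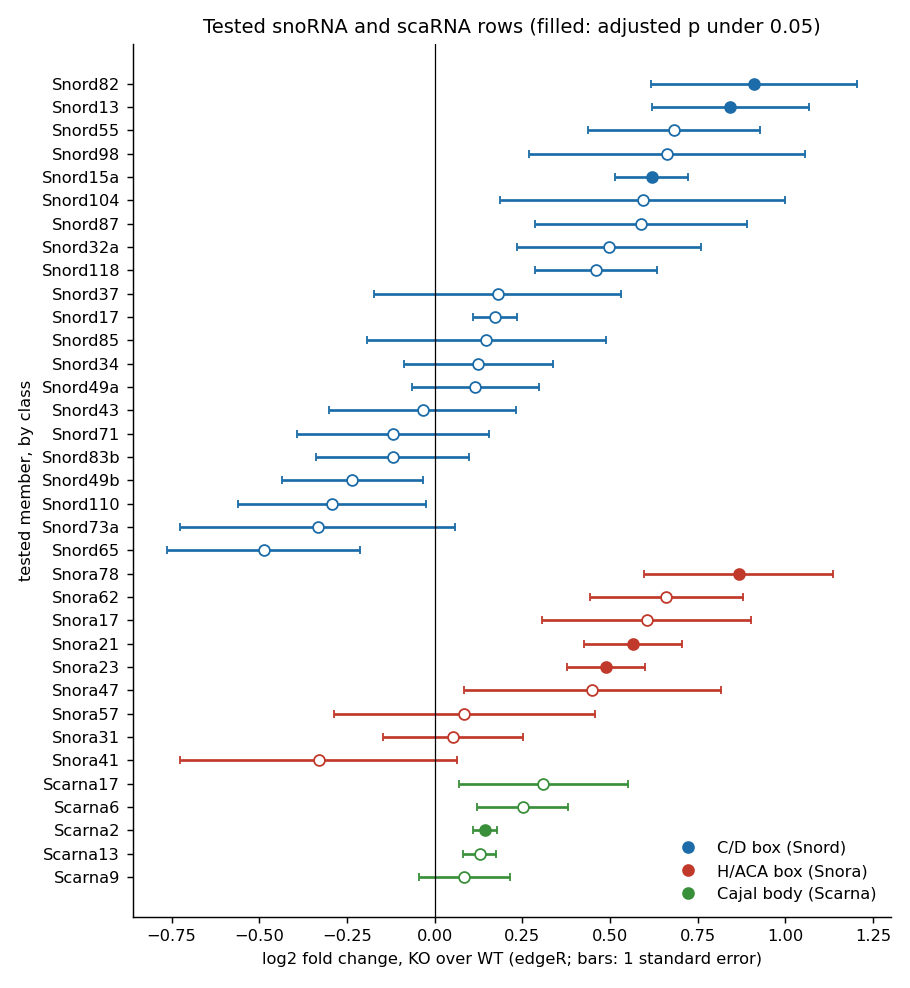
Log2 fold change, KO over WT, of each of the 35 tested members by class, with 1 standard error; filled points passed edgeR's test at an adjusted p under 0.05. The 7 filled points all lie to the right of 0, and the members left of 0, Snord65 (-0.49) the farthest, are open.

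Snord15a, a C/D box snoRNA that guides methylation of the large ribosomal RNA, had the smallest p. It was at 10.2, 12.3, 13.8 and 11.4 CPM in KO replicates 1 to 4 and 6.80, 8.72, 8.32 and 7.06 CPM in WT replicates 1 to 4. Every KO library lay above every WT library. The log2 fold change was 0.62 with a standard error of 0.10 (edgeR adjusted p = 1.22e-06).

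Snord13 (U13), which has its own promoter and is known for processing and acetylation of the small ribosomal RNA rather than methylation, was lower in counts. It had 54, 49, 41 and 45 counts in KO and 29, 33, 29 and 17 in WT, or 3.30, 2.93, 2.15 and 2.31 CPM in KO and 1.75, 1.64, 1.53 and 0.983 CPM in WT. The groups did not overlap, and WT replicate 4 was the lowest library. The log2 fold change was 0.84 ± 0.22 (standard error; edgeR adjusted p = 0.00696), and the call was lost without WT replicate 4 (0.0646) or KO replicate 1 (0.0621).

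Snord82, cut from an intron of the nucleolin gene Ncl, had 27, 22, 27 and 37 counts in KO and 14, 21, 12 and 14 in WT. At 1.57 ± 0.259 CPM in KO and 0.831 ± 0.168 CPM in WT (SD, n = 4) it was the faintest riser and had the largest fold, 0.91 on the log2 scale (edgeR adjusted p = 0.0432). The groups did not overlap in CPM. Its call was lost in 8 of the 17 other settings, among them DESeq2 (adjusted p = 0.0960).

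Of the H/ACA box snoRNAs, Snora23 lies in an intron of Ipo7, a nuclear import receptor gene. Its level was 9.42, 10.3, 10.03 and 9.38 CPM in KO and 5.66, 7.88, 8.05 and 6.07 CPM in WT. The KO libraries lay close together and above all WT libraries, which fell into a lower and a higher pair. The log2 fold change was 0.49 (standard error 0.11, edgeR adjusted p = 0.000937). A gene on the opposite strand, 1600010M07Rik, spans the site.

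Snora21, hosted by the ribosomal protein gene Rpl23, was at 6.05, 6.21, 6.30 and 6.10 CPM in KO and 3.37, 4.16, 4.84 and 4.22 CPM in WT. All 4 KO libraries lay above all WT libraries, with a log2 fold change of 0.57 (standard error 0.14, edgeR adjusted p = 0.00304). Snord15a, Snora23 and Snora21 were called in all 17 other settings tried.

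Snora78 was the faintest of the H/ACA risers, with 21, 36, 43 and 33 counts in KO and 16, 19, 22 and 17 in WT. The lowest KO library, 1.28 CPM, was above the highest WT library, 1.16 CPM. The log2 fold change was 0.87 (standard error 0.27, edgeR adjusted p = 0.0324), and the call was lost in 7 of the 17 other settings, including the removal of KO replicate 2 (0.130) or 3 (0.170). Its annotated host is Snhg9, and the ribosomal protein gene Rps2 lies on the opposite strand. Snora62, in the laminin receptor gene Rpsa, also showed no overlap, at 2.60 ± 0.327 CPM in KO and 1.62 ± 0.307 CPM in WT (SD, n = 4), and did not pass (log2 fold change 0.66, edgeR adjusted p = 0.0506).

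**Figure D4:**
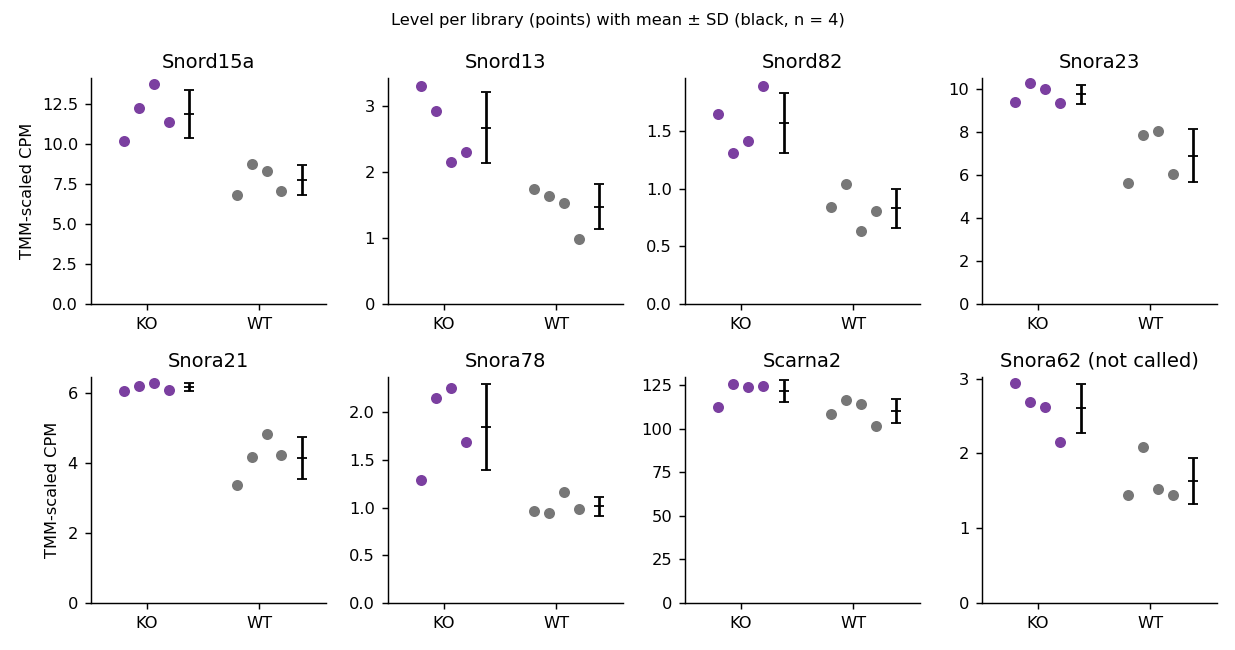
TMM-scaled CPM (y axis, from 0) of the 7 called members and of Snora62, which was not called, in 4 libraries labelled KO and 4 labelled WT (points in replicate order) with mean ± SD. Except for Scarna2, where KO replicate 1 at 112 CPM lies within the WT range, every KO point lies above every WT point.

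Among the scaRNAs only Scarna2 passed. It had 112, 126, 124 and 125 CPM in KO and 108, 117, 114 and 102 CPM in WT. KO replicate 1 fell within the WT range and the other KO libraries lay above it. With 16835 counts in all, its small log2 fold change of 0.14 had a standard error of 0.03 (edgeR adjusted p = 0.00204), but it did not pass once WT replicate 4 was left out (0.10, edgeR adjusted p = 0.0655). Scarna13 was at 54.04 ± 1.34 CPM in KO and 49.5 ± 2.56 CPM in WT (SD, n = 4), with no overlap (log2 fold change 0.13, edgeR adjusted p = 0.0925). Scarna6, in the autophagy gene Atg16l1, had a log2 fold change of 0.25 (adjusted p = 0.341), Scarna17 one of 0.31 (0.600) and Scarna9 one of 0.08 (0.837).

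The most abundant C/D box row, Snord17, hosted by the sorting nexin gene Snx5, was at 30.7, 33.2, 31.9 and 28.5 CPM in KO and 25.04, 30.1, 30.9 and 23.6 CPM in WT. The groups overlapped, with WT replicates 2 and 3 inside the KO range, and the change did not pass (log2 fold change 0.17, edgeR adjusted p = 0.0953). Snord118 (U8), required for maturation of the large-subunit RNAs, was at 3.85 ± 0.563 and 2.77 ± 0.540 CPM in KO and WT (SD, n = 4), a log2 fold change of 0.46 (edgeR adjusted p = 0.114). Snord49a, which shares its host 2410006H16Rik with Snord49b and Snord65, had a log2 fold change of 0.12, and these neighbours had -0.23 and -0.49 (adjusted p = 0.844, 0.651 and 0.398). Snora31, in the translationally controlled tumour protein gene Tpt1, had one of 0.05 (adjusted p = 0.941).

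Most called members were of 100 bases or more, but across the tested members the log2 fold change followed length only weakly. With a limit chosen after the values were seen, 6 of 17 tested members of 100 bases or more rose and 1 of 18 shorter ones did, with median log2 fold changes of 0.45 and 0.14. The longer group held all 9 H/ACA members, 5 C/D box members and 3 scaRNAs, and its members also had higher levels, with a median of 2.47 CPM against 1.38 CPM for the shorter ones. Across the 35 members the log2 fold change and the length had a Pearson r of 0.11 and a Spearman rho of 0.15, as a description over members that share the same 8 libraries. Of 677 other tested genes under 300 bases 21 rose and 7 fell, with a median log2 fold change of 0.03. Of 348 other tested genes of small RNA biotypes 26 rose and 2 fell, with a median of 0.12 and 240 above 0. Over all genes tested 2.35% rose and 2.80% fell, with a median log2 fold change of 0.0020.

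The tested hosts of 4 called members, Snord15a, Snora23, Snora21 and Snord82, did not pass the test. On the same strand 141 of the 150 members lie within a longer gene, 92 of them within a protein-coding gene. For 26 tested members the host, 1 of 22 genes, was tested too. Rps3, the ribosomal protein gene that hosts Snord15a, was at 132 ± 4.56 CPM in KO and 133 ± 3.22 CPM in WT (SD, n = 4), a log2 fold change of -0.0022 (edgeR adjusted p = 0.987). Ipo7, Rpl23 and Ncl had log2 fold changes of -0.04, -0.03 and -0.03 (adjusted p = 0.653, 0.729 and 0.440). Rpsa, the host of Snora62, fell by 0.14 (adjusted p = 1.79e-08).

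Set against its host, Snord15a had 74.0, 95.0, 103 and 88.6 counts per 1000 Rps3 counts in KO and 50.3, 67.5, 61.4 and 54.1 in WT. Snora21 had 39.9, 43.5, 43.4 and 40.3 per 1000 Rpl23 counts in KO and 22.8, 26.9, 32.6 and 27.7 in WT. For these pairs the groups did not overlap. Snora78 had 2333, 4500, 4300 and 4714 counts per 1000 counts of Snhg9 in KO and 2000, 2714, 5500 and 8500 in WT, so its groups overlapped. Snhg9 had 9, 8, 10 and 7 counts in KO and 8, 7, 4 and 2 in WT, too few for the test. Of the 22 hosts 2 rose, 7 fell and 13 did not pass, where 2.35% of all genes tested rose and 2.80% fell. The hosts had a median log2 fold change of -0.03 and a range of -0.28 to 0.15. The member's log2 fold change exceeded that of its host in 20 of 26 cases. Across these 26 members the log2 fold changes of member and host had a Pearson r of 0.40 and a Spearman rho of 0.42, as a description over pairs that share the same 8 libraries and in part their hosts. The fallers included Rpl3 and the noncoding host 2410006H16Rik, and the risers were Snx5 (0.15, adjusted p = 0.00390) and Ccar1 (0.09, adjusted p = 0.00782), which host Snord17 and Snord98. Reads of an unspliced host that cross a snoRNA can be counted at the snoRNA, so a member and its host are not independent.

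**Figure D5:**
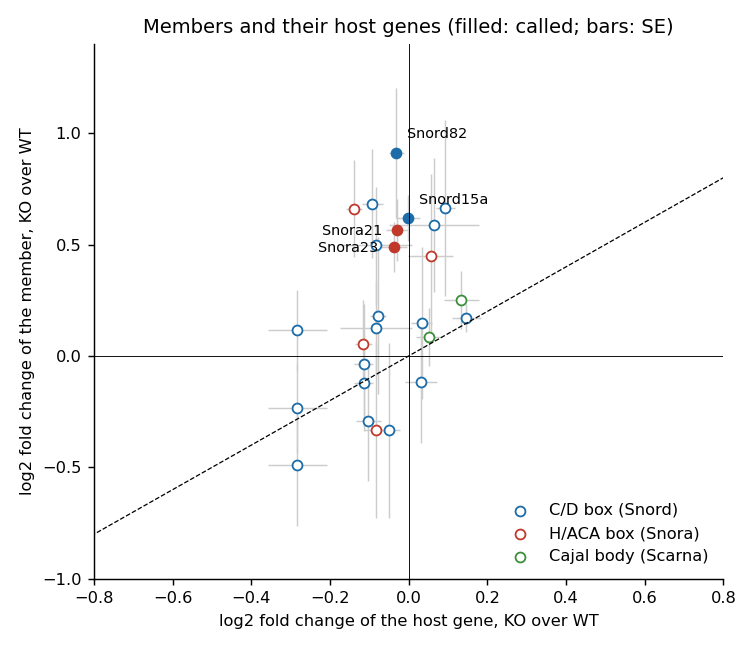
Log2 fold change of 26 tested members (y axis) against that of their 22 host genes (x axis), KO over WT, with standard errors; filled points passed the test and the dashed line marks equal change. The 4 named members lie at 0.49 to 0.91 while their hosts lie at -0.04 to -0.0022.

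Transcripts of the proteins that bind, assemble and process these RNAs moved little, and the proteins themselves were not measured. Over all genes tested 2.35% rose and 2.80% fell. Of the 5 C/D box particle genes tested 1 fell, none rose and 4 did not pass; Nop56, a core protein that holds the guide RNA, was at 130 ± 6.60 CPM in KO and 140 ± 5.11 CPM in WT (SD, n = 4), a log2 fold change of -0.10 (edgeR adjusted p = 0.0276). That call was lost with DESeq2 (0.119), upper-quartile scaling (0.0526), no filter on low counts (0.0635) or a dispersion that was not robust (0.0605), and without KO replicate 2 (0.278) or 3 (0.0980) or WT replicate 1 (0.0536), 3 (0.0755) or 4 (0.160). Nop56 also hosts Snord110, which had a log2 fold change of -0.29 (adjusted p = 0.682).

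Of the 4 H/ACA particle genes 1 rose and 3 did not pass. Dkc1, the X-linked gene of dyskerin, was at 33.5, 33.6, 33.6 and 33.7 CPM in KO and 29.2, 28.1, 30.6 and 30.02 CPM in WT. The groups did not overlap and the KO libraries were almost equal (log2 fold change 0.19, standard error 0.06, edgeR adjusted p = 0.0300). The call was lost without any KO library (0.0525 to 0.0730) or without WT replicate 1 (0.0672) or 2 (0.133), with DESeq2 (0.0618) and with library totals alone (0.0602). Gar1, Nhp2 and Nop10 had log2 fold changes of -0.13, -0.06 and -0.05 (adjusted p = 0.679, 0.830 and 0.908).

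Of 13 assembly factors 1 fell, the heat shock chaperone gene Hsp90aa1 (log2 fold change -0.07, edgeR adjusted p = 0.00509), and 12 did not pass. None of the 12 tested Cajal body and telomerase genes passed in edgeR, DESeq2 or limma voom, and 0 had an unadjusted p under 0.05. Uspl1 and Ddx20, with the smallest p among them, had log2 fold changes of 0.06 and -0.10 (adjusted p = 0.478 and 0.483), and Coil, which encodes the Cajal body scaffold coilin, was at 14.5 ± 0.338 CPM in KO and 14.6 ± 1.52 CPM in WT (SD, n = 4). The H/ACA telomerase RNA Terc was at 0 in every library. Whether its row lies in an exon of another gene was not looked at, so this 0 is not read as a level. None of 14 snoRNA end-processing and decay genes passed in edgeR, DESeq2 or limma voom, and 2 had an unadjusted p under 0.05, both lower. These were Mtrex, the exosome helicase gene (-0.11, adjusted p = 0.0512), and Toe1, a nuclear deadenylase gene (-0.29, adjusted p = 0.182). Mtrex was called with DESeq2 size factors (0.0471), library totals (0.0182), a filter of 1 CPM (0.0475) and without WT replicate 4 (0.00355).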

How the data were processed

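Libraries were prepared from total RNA of purified germ cells with a pico-input stranded kit (SMARTer), per the labels' protocols. The authors deposited 1 table of raw counts per gene for 8 libraries, with no normalization. STAR 2.5.2b, Subread, featureCounts and DESeq2 with GRCm38 are listed in the submitters' processing notes; their roles, the strand setting and the treatment of reads with several positions are not given in the sources used here. Annotated lengths are the deposited Length column, in bases.

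Symbols came from GENCODE M21 (55141 of 55487 rows matched), hosts and transcript sequences from the same release; all 150 members had identical positions in it. Counts were tested over all genes in R 4.3.3 with edgeR 4.0.16 (filterByExpr defaults, trimmed mean of M-values (TMM) scaling, robust quasi-likelihood test, two-sided, no covariate), Benjamini-Hochberg adjusted, called under 0.05. The filter asked for about 0.554 CPM, or 10 counts in a library of median size, in 4 libraries. Levels are TMM-scaled CPM; shares are counts over all counts of a library. Low counts limit precision, and floors cover counting error only, as no molecular identifiers are given. Standard errors come from the edgeR fit and SDs from the 4 libraries of a group, so both take in the spread between libraries. Alternatives were other scalings, filters, DESeq2 1.42.0, limma 3.58.1 voom, no robust dispersion, a replicate block and leaving out each library. Named were all called members, the 4 most abundant per class, every tested scaRNA, ribosomal RNA processing snoRNAs, imprinted families and up to 4 genes per pathway list; others are named as host, neighbour or faint example after their values were seen. The members and lists were chosen with earlier results of these data known. The sequence of 1 called C/D box member is not reported here.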

Additional observations from a re-analysis of the deposited data

Results flagged for a closer look

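In 54 groups of 4 libraries, of named genes and class shares, 3 had 1 library far from the other 3, about as many as chance gives (1 in 20). For Scarna2 in libraries labelled KO, replicate 1 (112 CPM) lay below the others, with a gap of 0.860 of the range. For Snora62 in libraries labelled WT, replicate 2 lay above the others (gap 0.871 of the range; 2.08 CPM against 1.44 to 1.53 CPM). For Snora31 in libraries labelled WT the gap was 0.836 of the range.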

How the results depend on the processing

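The count of members called higher, 7, was 5 to 8 over the other scalings, filters and tests and 3 to 10 when 1 library was left out, the 3 being without WT replicate 4 and the 10 without WT replicate 2; 0 members were called lower in any of these settings. Without WT replicate 4 the calls of Scarna2, Snora78, Snord13 and Snord82 were lost; the cause was not tested. The all-gene count of falls, 649, was 412 with DESeq2 (cause not tested). The shares kept their direction in every alternative tried, with a log2 ratio of 0.41 to 0.50 for H/ACA, 0.18 to 0.28 for C/D box and 0.11 to 0.15 for scaRNA rows. When 1 library was left out, 2 uncalled members changed sign: Snora31 ranged from -0.024 (without KO replicate 1) to 0.12 and Scarna9 from -0.012 (without KO replicate 4) to 0.17. Of 391 values of named genes under alternatives 341 kept direction and call, 35 lost the call, 13 gained it and 2 turned. No pairing by replicate number was seen: deviations of same-numbered libraries correlated at -0.0022 to 0.048, none over 0.1. Not every library correlated best with its own number. With 4 libraries a group this check cannot exclude a shared litter or batch. With the replicate block 8 members were higher and 0 lower. Depth limits the faint members: 32 rows with counts were too low to test.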
